A study of Homo sapiens with 13 samples.

Results

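RNA polymerase II (Pol II) and trimethylated lysine 4 of histone H3 (H3K4me3) were compared at the starts of protein-coding genes in MDA-MB-231 cells. The comparison was made over 19894 windows of 3 kb, each centred on the start (TSS) of the Ensembl canonical transcript of a protein-coding gene (GENCODE 44, lifted to GRCh37, that is hg19). A window was counted for a list when at least 1 bp of it lay under a peak, which sorted the windows into those with both, with Pol II only, with H3K4me3 only and with neither. All 19894 windows were used. The windows were thus set by gene annotation and not by signal. The choice of this comparison and of the gene lists was made with earlier results of these data known.

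MDA-MB-231 is an established human line from a triple-negative breast cancer of the basal B type, and the cells were grown under a single, standard condition with no treatment. Pol II was immunoprecipitated with the antibody sc-55492 and H3K4me3 with Ab8580, with 2 replicate libraries each, so that 4 of the 13 libraries of the series enter here. The replicates were merged by the authors before peaks were called. Each list holds positions without a height per peak, so depth is unknown, no error between replicates can be given, and intervals are 95% Wilson intervals that cover counting error only. No test between classes was made, since windows are not replicates.

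Pol II starts transcription of protein-coding genes and, at many of them, pauses shortly after the start until elongation factors release it into the gene body. H3K4me3 is laid down on the nucleosomes around active and CpG-rich starts by SET1 and MLL complexes, and marks promoters rather than gene bodies. A Pol II peak confined to the start and one that runs through the gene are therefore commonly read as different states of a gene.

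The 26065 Pol II peaks were 850 bp wide at the median (quartiles 400 and 1650 bp), and the 24693 H3K4me3 peaks 1150 bp (500 and 2200 bp). Of the Pol II peaks 39.9% touched a start window, and of the H3K4me3 peaks 49.3%. Lists were made with separate thresholds (50 for Pol II and 30 for H3K4me3, on differently processed signals) and gaps between bins above them were bridged up to 800 bp for Pol II and 500 bp for H3K4me3. The extents compared here are those of the thresholded peaks, and a start without a peak is not a start shown to lack the protein or the mark.

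Most starts carried both or neither. Both lists were present in 11230 windows, which is 56.4% of all (interval 55.8% to 57.1%), and neither in 7036, or 35.4% (34.7% to 36.0%). H3K4me3 without Pol II was found in 1242 windows, or 6.24% (5.92% to 6.59%), and Pol II without H3K4me3 in 386, or 1.94% (1.76% to 2.14%). Pol II was thus found in 90.04% of the 12472 windows that held H3K4me3 (89.5% to 90.6%) and in 5.20% of the 7422 that did not. In turn, 96.7% (96.3% to 97.0%) of the 11616 windows that held Pol II also held H3K4me3. Counts of the small classes moved with the rule: with the start itself required under the peak, windows with Pol II only numbered 1062, and with only the wider peaks of each list (its median width or more), 6890 windows had both and 4050 had H3K4me3 only. Few windows lay at the edge of the rule: Pol II covered 50 bp or less in 14 of its 11616 windows and H3K4me3 in 17 of its 12472, while 53 of the windows with H3K4me3 only had a Pol II peak less than 2000 bp from the start and 20 of those with Pol II only had an H3K4me3 peak as close.

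The more of a window lay under H3K4me3, the more often Pol II was there. Of 379 windows with H3K4me3 over less than 500 bp, 25.6% (21.5% to 30.2%) held Pol II. The share was 48.6% of 701 windows with 500 to 999 bp, 78.9% of 1561 windows with 1000 to 1499 bp and 93.1% of 2917 windows with 1500 to 1999 bp. It reached 98.4% of 3633 windows with 2000 to 2499 bp and 99.6% (99.3% to 99.7%) of 3281 windows with 2500 bp or more. In windows with both, the median length under H3K4me3 was 2150 bp and under Pol II 1050 bp, whereas in windows with H3K4me3 only the mark covered a median of 950 bp.

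The classes also differed in the marks the rule did not use. H3K27ac, a mark of active promoters and enhancers, was present at 99.6% of windows with both, 60.7% of those with H3K4me3 only, 14.5% of those with Pol II only and 3.17% of those with neither. H3K4me1, which is typical of enhancers and promoter flanks, was found at 85.5%, 66.7%, 46.1% and 17.0% of these classes, respectively. CTCF, an architectural protein, was found at 25.1% of windows with H3K4me3 only and at 24.4% of those with both, with intervals that overlap (22.8% to 27.6% and 23.6% to 25.2%), at 11.4% of those with Pol II only and at 5.70% of those with neither. p300/CBP peaks lay in 0.766% of windows with both, 0.966% of those with H3K4me3 only and 0.597% of those with neither. With Pol II only they lay in 13 windows, all of them on chromosome M, which a single p300/CBP peak covers, and in 0 of the 373 nuclear ones.

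Base composition set the classes with H3K4me3 apart from those without. In the 1 kb centred on the start, the median ratio of observed to expected CpG was 0.79 for both, 0.77 for H3K4me3 only, 0.32 for Pol II only and 0.32 for neither, with a median GC content of 63.7%, 66.8%, 60.3% and 53.8%. Starts with a CpG ratio of at least 0.6 and a GC content of at least 50% made up 88.6% of the windows with both, 75.7% of those with H3K4me3 only, 22.8% of those with Pol II only and 27.8% of those with neither, against 65.0% of all. The 100 bases before the start are printed for 6 genes of the classes, because they show this range; the sequences are from GRCh37 on the transcribed strand, each CG is in capitals, and none of these stretches overlaps an annotated exon.
RPL29 (both), chr3:52029912-52030011, minus strand: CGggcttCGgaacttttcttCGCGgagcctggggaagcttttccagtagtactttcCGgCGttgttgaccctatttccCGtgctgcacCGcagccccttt
GADD45G (H3K4me3 only), chr9:92219827-92219926, plus strand: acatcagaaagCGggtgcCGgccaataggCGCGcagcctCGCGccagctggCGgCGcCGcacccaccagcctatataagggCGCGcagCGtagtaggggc
TLL2 (Pol II only), chr10:98273684-98273783, minus strand: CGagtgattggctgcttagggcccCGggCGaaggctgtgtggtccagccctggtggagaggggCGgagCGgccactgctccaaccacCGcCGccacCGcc
HK3 (Pol II only), chr5:176326348-176326447, minus strand: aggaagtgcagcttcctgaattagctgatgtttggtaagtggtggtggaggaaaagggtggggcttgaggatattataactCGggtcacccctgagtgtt
RBFOX1 (neither), chr16:6068925-6069024, plus strand: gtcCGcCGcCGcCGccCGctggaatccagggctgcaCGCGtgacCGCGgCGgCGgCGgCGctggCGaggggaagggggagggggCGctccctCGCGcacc
EYS (neither), chr6:66417120-66417219, minus strand: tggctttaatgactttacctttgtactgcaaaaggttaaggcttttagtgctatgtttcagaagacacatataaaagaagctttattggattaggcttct
These stretches held 8 CG in RPL29, 12 in GADD45G, 8 in TLL2, 1 in HK3, 17 in RBFOX1 and 0 in EYS. The genes were picked after their values were seen, and RBFOX1 shows that a CG-rich start could carry neither Pol II nor H3K4me3.

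Around the starts with both, H3K4me3 formed a broad domain with the Pol II peak inside it. At the start itself 88.7% of these genes were under a Pol II peak and 86.9% under an H3K4me3 peak. H3K4me3 was most frequent 550 bp downstream (93.3%), while Pol II was most frequent at 50 bp (88.9%). At 1000 bp downstream the shares were 81.4% for H3K4me3 and 22.1% for Pol II. From 2650 bp on Pol II was the more frequent (12.1% against 11.5%), and at 5000 bp it covered 11.6% of these positions against 3.16% for H3K4me3. These shares count any peak at that distance, not only the peak over the start. At 5000 bp upstream they were 7.83% for Pol II and 3.70% for H3K4me3.

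**Figure D1:**
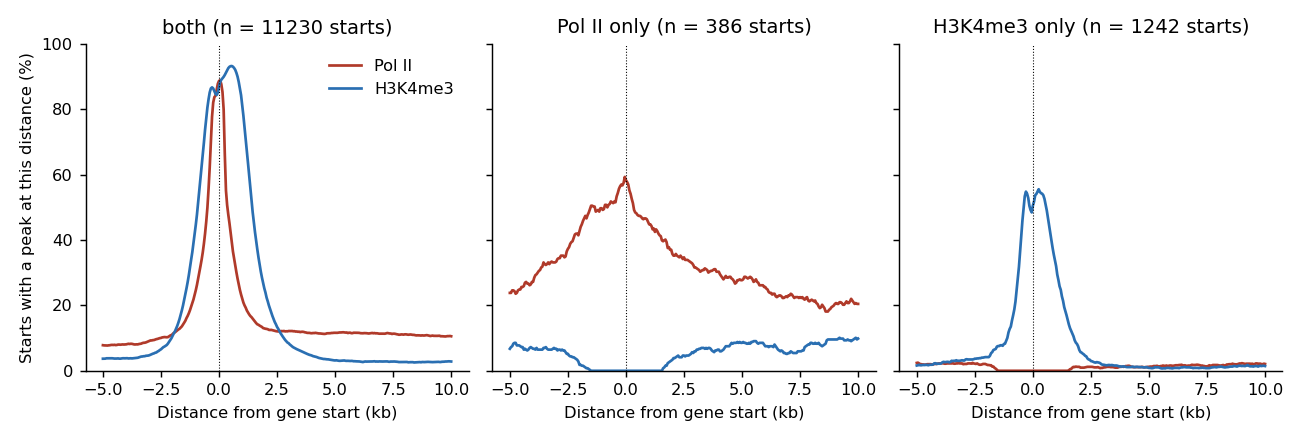
Share of gene starts (%, vertical axis) with a Pol II peak (red) or an H3K4me3 peak (blue) at each distance from the start (kb, horizontal axis; positive values lie in the direction of transcription), for the 11230 windows with both, the 386 with Pol II only and the 1242 with H3K4me3 only. The list that the class lacks is 0 across the 3-kb window by the way the class was defined; with both, the Pol II curve falls faster downstream than the H3K4me3 curve and flattens near 12%.

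How far each peak extended was measured at the 9123 starts that lay under a peak of both lists, as the distance from the start to the downstream end of that peak. H3K4me3 reached a median of 1425 bp downstream (interval of the median 1412 to 1437 bp; quartiles 1112 and 1908 bp). Pol II reached a median of 440 bp (424 to 456 bp; quartiles 248 and 908 bp). The tails were in the opposite order, since 5.35% of starts (488) had a Pol II peak that reached at least 5 kb, against 1.40% (128) for H3K4me3, and the farthest reaches were 66020 and 13756 bp. Pol II reached farther downstream than H3K4me3 at 10.9% of starts (992; interval 10.3% to 11.5%).

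Upstream, the medians were 515 bp for Pol II and 926 bp for H3K4me3. The Pol II peak lay within the H3K4me3 peak on both sides at 6815 starts, or 74.7%. It passed the H3K4me3 peak upstream only at 14.4%, downstream only at 6.94% and on both sides at 3.94%. Across the starts the downstream reaches of Pol II and H3K4me3 had a Spearman rank correlation of 0.43 (n = 9123 starts of 1 cell line, which share libraries). H3K27ac, measured in the same way at the 8496 of these starts that it covered, reached a median of 1293 bp.

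**Figure D2:**
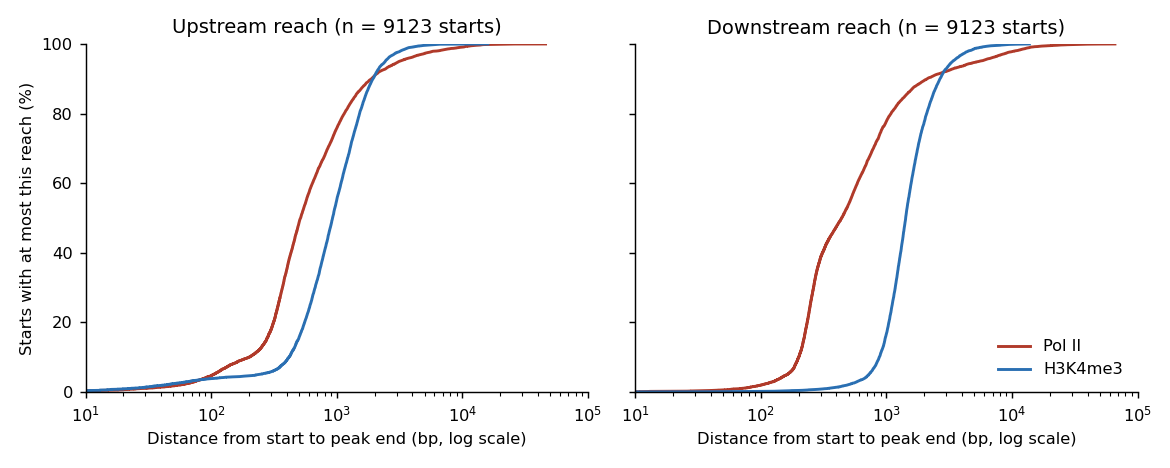
Cumulative share of the 9123 starts under both peaks (%, vertical axis) against the distance from the start to the upstream (left) and downstream (right) end of the peak (bp, log scale), for Pol II (red) and H3K4me3 (blue). Downstream the Pol II curve rises first, with a median of 440 bp against 1425 bp, and the curves cross before 5 kb, beyond which 5.35% of Pol II and 1.40% of H3K4me3 peaks extend.

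A Pol II peak that spanned a whole transcript was mostly found at short genes. A shorter transcript is spanned by a shorter peak, so these shares follow in part from length and do not measure the state of a gene. Of the 488 starts with a Pol II reach of at least 5 kb, 206 belonged to transcripts under 5 kb, 152 to transcripts of 5 to 10 kb and 130 to longer ones. A single Pol II peak spanned the whole canonical transcript at 538 of the 9123 starts (5.90%), that is at 355 of 922 transcripts under 5 kb (38.5%), 138 of 1147 between 5 and 10 kb (12.03%) and 45 of 7054 of at least 10 kb (0.638%). These peaks ended a median of 2990 bp past the transcript end (quartiles 1809.5 and 5238 bp), and 2733.5 bp in the 268 of them that held no other protein-coding start. A single H3K4me3 peak spanned 184 of the transcripts under 5 kb, 9 of those between 5 and 10 kb and 0 of the longer ones. At transcripts of at least 10 kb, 39.1% had a further Pol II peak on the transcript apart from the one at the start, and Pol II peaks covered a median of 1.61% of the transcript. The start of another protein-coding gene lay in 25.7% of the Pol II peaks that reached less than 0.5 kb, 25.5% at 0.5 to 1 kb, 23.4% at 1 to 2 kb, 32.2% at 2 to 5 kb, 41.0% at 5 to 10 kb and 53.0% at 10 kb or more, so that some long reaches join neighbouring genes.

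The 8 starts with the farthest Pol II reach belonged to genes of 32.8 to 142 kb. BCL2L1, which encodes the anti-apoptotic protein BCL-xL, lay under a Pol II peak that reached 66020 bp from its start (chromosome 20, position 30310671, minus strand) and 7.61 kb past the transcript end, while its H3K4me3 peak reached 12370 bp. AXL, a receptor tyrosine kinase of mesenchymal-type breast cancer cells, had reaches of 48772 bp for Pol II and 8372 bp for H3K4me3, in a Pol II peak that also held the start of HNRNPUL1.

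SNAPC1, a subunit of the complex that drives small nuclear RNA genes, had a Pol II reach of 45412 bp, and LAMB3, the laminin beta-3 chain, of 41919 bp. Both peaks ran past the transcript end, by 11.4 kb and 4.36 kb. SMURF2, a ubiquitin ligase of the TGF-beta pathway, and HMGA2, an architectural chromatin protein, are the longest of the set. Their Pol II peaks reached 39824 and 36887 bp from the start and ended well before the transcript end. PKM, a pyruvate kinase of glycolysis, completed the set with 35130 bp, in a Pol II peak that also held the start of GRAMD2A. At these 8 starts H3K4me3 reached 5480 to 12674 bp, which is above the upper quartile of all starts in every case.

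The 8 starts with the farthest H3K4me3 reach were CCDC85B, EPHA2, SMURF2, BCL2L1, NRM, NR2F2, DUSP4 and TRA2B. SMURF2 and BCL2L1 were thus in both sets. CCDC85B, with 13756 bp, shared its H3K4me3 peak (chromosome 11, 65654451 to 65671901) with FOSL1, the gene of the AP-1 protein Fra-1, for which the same peak gave 13408 bp. EPHA2, an ephrin receptor tyrosine kinase, had an H3K4me3 reach of 12763 bp and a Pol II reach of 19013 bp. NR2F2, a nuclear receptor, had 10821 bp of H3K4me3 and 6871 bp of Pol II, so that here the mark extended past Pol II. Among the 8, Pol II reached farther than H3K4me3 in all but NR2F2 and CCDC85B.

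Gene length differed between the classes in both directions. The median gene length was 33125 bp for windows with both (quartiles 13530.8 and 76888 bp), 7025.5 bp for Pol II only (3457.75 and 18535.8 bp), 55837.5 bp for H3K4me3 only (17899 and 145572 bp) and 17767 bp for neither (5721 and 54694 bp). With the start itself required under the peak, the Pol II only group numbered 1062 with a median length of 21790 bp, but its make-up changed. It then takes in windows with both whose start lay under Pol II but not under H3K4me3. In the 11230 windows with both, 9960 starts lay under Pol II and 9123 under both peaks. In the 386 windows with Pol II only, 225 starts lay under Pol II. Genes with a single exon made up 2.15% of the windows with both and 11.2% of those with neither. H3K4me3 without Pol II made up 3.19% of genes under 5 kb and 14.03% of genes of at least 200 kb, and Pol II without H3K4me3 5.47% and 0.134%. Of the windows with H3K4me3, 91.3% (89.4% to 92.9%) held Pol II among genes under 5 kb and 77.9% (75.1% to 80.4%) among genes of at least 200 kb.

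**Figure D3:**
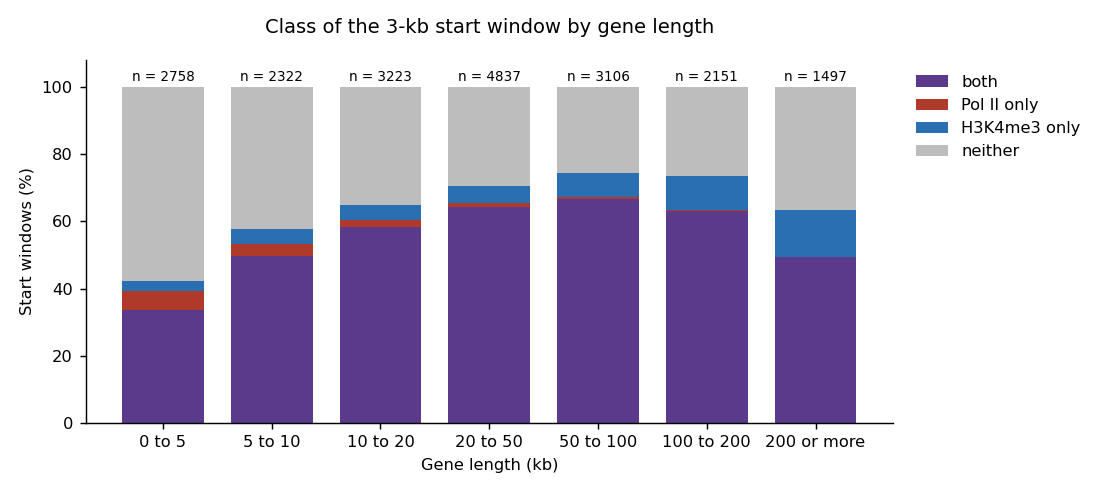
Share of start windows (%, vertical axis) in each class by gene length (kb, horizontal axis), with the number of windows above each bar. Windows with H3K4me3 only take a larger part of the bar toward long genes (3.19% to 14.03%), and those with Pol II only a smaller one (5.47% to 0.134%).

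Pol II reach shortened with gene length whereas H3K4me3 reach hardly moved. For genes under 5 kb the medians were 1017.5 bp for Pol II and 1380 bp for H3K4me3, and Pol II reached farther at 38.3% of 734 starts. For genes of at least 200 kb the medians were 294 and 1452 bp, and Pol II reached farther at 5 of 567 starts (0.882%).

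Among the gene lists, cytosolic ribosomal protein genes had the longest median Pol II reach. These genes encode the proteins of the cytosolic ribosome and are short and strongly transcribed in growing cells. Of 85 such genes, 80 had both and 5 had neither (94.1% with both, beside 56.4% of all). The 5 include RPL10L and RPL3L, paralogues used in testis and muscle. At the 77 starts under both peaks the median reach was 7013 bp for Pol II and 2901 bp for H3K4me3. Pol II reached farther at 56 of these starts (72.7%, beside 10.9% of all), and 53 reached at least 5 kb (beside 5.35% of all). Transcripts under 5 kb had a median Pol II reach of 1000 bp over all genes, and the median ribosomal protein transcript was 4522 bp long. The range ran from RPS29 (16647 bp of Pol II, 13844 bp past the end of its 2804-bp transcript, and 2947 bp of H3K4me3) to RPL39 (242 bp of Pol II and 3792 bp of H3K4me3).

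Mitochondrial ribosomal protein genes, which are also expressed in every cell type, did not share this pattern. All 78 had both, beside 56.4% of all windows, but the median reach at 76 starts was 379.5 bp for Pol II and 1291.5 bp for H3K4me3. Pol II reached farther at 7 (9.21%, near the 10.9% of all starts). Their transcripts were longer, with a median of 8572.5 bp. The proteasome list was close to them (37 of 39 with both; medians of 466 and 1543 bp), from PSMB4 (4401 bp of Pol II) to PSMA2 (222 bp); the exceptions were PSMA8 and PSMB11, the subunits of testis and thymus, with neither. All 20 cytosolic aminoacyl-tRNA synthetase genes had both (beside 56.4% of all windows), with medians of 574.5 and 1678.5 bp. At none of the 20 did Pol II reach past H3K4me3, beside 10.9% of all starts.

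AP-1 and immediate early genes respond within minutes to growth factors and stress. The 18 of them whose start lay under both peaks fell into a long and a short pattern. Of 27 genes 26 had both (96.3%, beside 56.4% of all windows) and EGR2 had H3K4me3 only. At the 18 starts under both peaks the median reach was 5670.5 bp for Pol II and 3568 bp for H3K4me3, and the Pol II peak spanned the whole transcript at 10. FOSL1, JUNB and JUN encode the AP-1 proteins Fra-1, JunB and c-Jun. Their Pol II reaches were 12808, 6450 and 5568 bp and their H3K4me3 reaches 13408, 3050 and 4218 bp. The Pol II peak of FOSL1 also held the starts of CCDC85B and FIBP. DUSP1, a phosphatase that turns off MAP kinases, and CCN1, a matricellular protein, had Pol II reaches of 5997 and 4656 bp. FOS and FOSB, which encode other AP-1 proteins, lay at the opposite end with Pol II reaches of 219 and 196 bp. Their H3K4me3 peaks reached 1119 and 2396 bp. EGR1 had the shortest Pol II reach of the list, at 82 bp with 732 bp of H3K4me3, although its Pol II peak extended 1667 bp upstream. KLF2, NR4A1 and NR4A2 also had Pol II within 263 bp of the start. No member had a reach between that of KLF10 (852 bp) and that of CCN1 (4656 bp) among these 18.

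**Figure D4:**
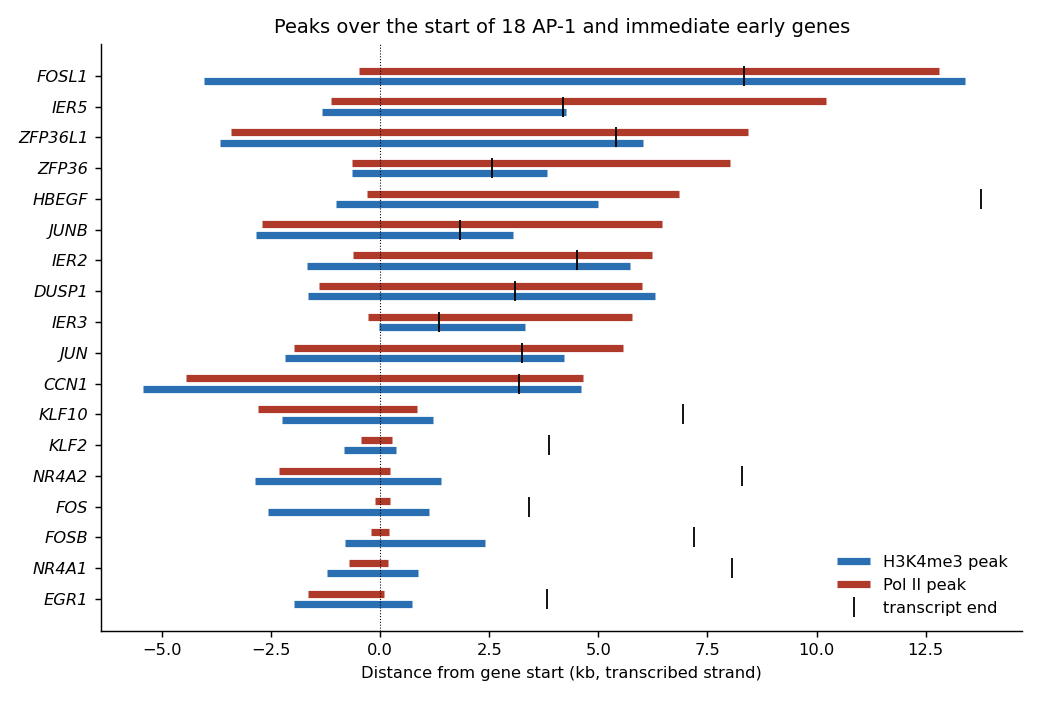
Extent of the Pol II peak (red) and the H3K4me3 peak (blue) over the start of the 18 AP-1 and immediate early genes that lay under both, in kb from the start along the transcribed strand; the black bar marks the end of the canonical transcript. In the upper 11 genes, from CCN1 to FOSL1, Pol II reached 4656 bp or more, and in the lower 7, from EGR1 to KLF10, it reached 852 bp or less.

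The TATA box sequence was more frequent before starts from which Pol II reached far, in shares that were not tested. TATAAA was searched on both strands in the 100 bases before each start, and was found at 5.68% of all 19894 starts. It was found at 2.23% of the windows with both, 3.70% with H3K4me3 only, 6.74% with Pol II only and 11.5% with neither. Among the starts under both peaks it was found at 1.22% (0.949% to 1.57%) of 4920 with a Pol II reach under 500 bp, 1.82% of 3246 with 500 bp to 2 kb, 5.76% of 469 with 2 to 5 kb and 8.40% (6.25% to 11.2%) of 488 with 5 kb or more. Without the replication-dependent histone genes, most of which have this sequence, the share at 2 to 5 kb was 4.56%, and no start at 5 kb or more was affected. On the gene's own strand with its first base at positions -35 to -25, the shares were 0.894% of the shortest and 6.56% of the longest group. Beside these, it was so placed at 3.79% of all starts and at 7.31% of those with neither. A match is a description of the letters and not a shown binding site. GGGCGG was found in the same way at 54.2% of the shortest and 59.6% of the longest group, beside 45.6% of all starts, and CCAAT at 24.3% and 25.4%, beside 20.7%. The AP-1 sequence TGACTCA was found at 0.691% and 1.02%, beside 1.27%, and the E-box CACGTG at 5.26% and 4.51%, beside 4.25%. None of these sequences contains another, but matches may overlap.

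Of the 27 AP-1 and immediate early genes, 8 held TATAAA in this stretch (29.6%, beside 5.68% of all). Those of JUNB, DUSP1, CCN1 and EGR1 are printed, with TATAAA in capitals where it was found, because they stand for the long and the short pattern and overlap no annotated exon.
JUNB (Pol II reach 6450 bp), chr19:12902200-12902299, plus strand: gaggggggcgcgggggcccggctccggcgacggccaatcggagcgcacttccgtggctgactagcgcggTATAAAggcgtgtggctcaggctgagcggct
DUSP1 (5997 bp), chr5:172198199-172198298, minus strand: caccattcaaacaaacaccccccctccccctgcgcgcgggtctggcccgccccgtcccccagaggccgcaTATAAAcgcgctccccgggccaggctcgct
CCN1 (4656 bp), chr1:86046344-86046443, plus strand: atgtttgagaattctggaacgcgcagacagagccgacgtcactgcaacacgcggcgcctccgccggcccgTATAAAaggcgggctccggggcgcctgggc
EGR1 (82 bp), chr5:137801068-137801167, plus strand: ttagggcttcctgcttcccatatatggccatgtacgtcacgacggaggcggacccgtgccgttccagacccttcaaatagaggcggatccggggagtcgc
The first T of TATAAA lay at -31 in JUNB and at -30 in DUSP1 and CCN1. The sequence does not sort the genes by itself, since FOS and FOSB hold it with Pol II reaches of 219 and 196 bp, at -33 and -30. In turn, FOSL1 and JUN, both of the long pattern, do not hold it.

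Replication-dependent histone genes, which are intronless and transcribed in S phase, had both at 37 of 63 starts (58.7%, near the 56.4% of all windows). At 29 starts the median reach was 1453 bp for Pol II and 1712 bp for H3K4me3, and the Pol II peak spanned the whole transcript, with a median length of 487 bp, at 28. Heat shock protein genes had both at 14 of 14 starts, beside 56.4% of all windows. At the 11 under both peaks they ranged from HSP90AB1 (11212 bp of Pol II and 2762 bp of H3K4me3) to HSPA1B (285 and 385 bp). HSPA1A is a near-identical neighbour of HSPA1B. Of the 19 glycolysis genes 18 had both (94.7%, beside 56.4% of all windows), and Pol II reached at least 5 kb at 8 of the 18 starts under both peaks, beside 5.35% of all such starts, among them PKM, ENO1 (24294 bp), GAPDH (6367 bp) and LDHA (6440 bp). PGK1 had the shortest Pol II reach of these, at 205 bp with 1855 bp of H3K4me3. ALDOC, the aldolase of brain, had Pol II only, over 750 bp of its window.

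Genes of the transcription machinery almost all had both, beside 56.4% of all windows. Of the 12 genes for Pol II subunits 11 had both, with median reaches of 298 bp for Pol II and 1559 bp for H3K4me3, and POLR2J had H3K4me3 only. POLR2L stood apart with 23578 bp, in a peak that held 3 other protein-coding starts. All 28 genes for pausing and elongation factors had both, with a median Pol II reach of 521 bp, beside 440 bp over all starts, from HEXIM1 (13958 bp of Pol II), which encodes an inhibitor of the elongation kinase P-TEFb, to ELL (229 bp), an elongation factor. The subunits of NELF, the pausing complex, had Pol II reaches of 250 bp (NELFA), 521 bp (NELFB) and 547 bp (NELFE). All 14 genes for H3K4 methyltransferase complexes and all 13 for H3K4 demethylases and readers had both, with median Pol II reaches of 772 and 198 bp. Of the 504 ZNF genes, most of which encode repressors, 402 had both (79.8%, beside 56.4% of all windows), with medians of 316.5 and 1208.5 bp.

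**Figure D5:**
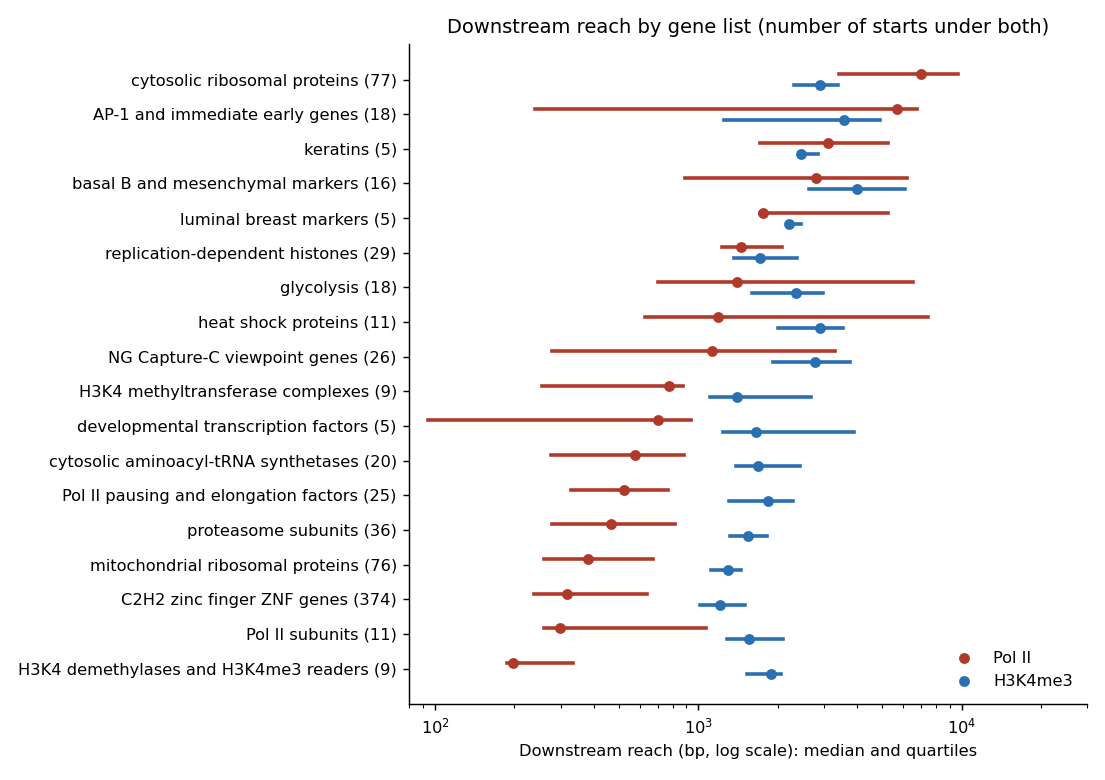
Downstream reach (bp, log scale) of Pol II (red) and H3K4me3 (blue) at starts under both peaks for each gene list with at least 5 such starts, given as median (point) and quartiles (line); the number of starts is in brackets. The Pol II median lies right of the H3K4me3 median for cytosolic ribosomal protein genes (7013 against 2901 bp), AP-1 and immediate early genes (5670.5 against 3568 bp) and keratins (3097 against 2448 bp), and left of it for the other lists shown.

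Markers of the basal B type mostly had both. Beside the 56.4% of all windows with both and the 35.4% with neither, 18 of 20 basal B and mesenchymal markers had both, TGFBI had H3K4me3 only, and ETS1 had neither at its canonical start. The range ran from AXL (48772 bp of Pol II) to SNAI2, a repressor of epithelial genes (137 bp of Pol II and 2637 bp of H3K4me3); VIM (vimentin) had 11860 and 8160 bp and EGFR 3640 and 4190 bp. Of 20 luminal markers 7 (35.0%) had both, 2 had H3K4me3 only (PGR and ESRP1) and 11 (55.0%) had neither, including ESR1, GATA3, CDH1 and EPCAM. KRT19 had the longest Pol II reach of the luminal list (6759 bp) and ERBB3 the shortest (201 bp). Of 55 keratins 5 (9.09%) had both (KRT7, KRT8, KRT18, KRT19 and KRT80) and 50 (90.9%) neither. Of 25 markers of hepatocytes, muscle, neurons and blood, 0 had both and 22 (88.0%) had neither. APOA1, of hepatocytes, had Pol II only over 13 bp of its window, and HBA1, an alpha-globin gene with a near-identical copy, over 678 bp. SNAP25, of neurons, had H3K4me3 only over 700 bp.

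Of 33 protein-coding genes used as viewpoints of the chromosome conformation capture in this study, 30 had both (90.9%, beside 56.4% of all windows); the viewpoint RPSAP52, a pseudogene in the annotation, has no window here. Their median reach was 1122 bp for Pol II and 2768 bp for H3K4me3 at 26 starts, from HMGA1 (13100 and 8550 bp) to PITPNC1 (103 and 2453 bp). PDE2A, a phosphodiesterase, had Pol II only, over 2965 bp of its window. CDCP1, a transmembrane protein, and CXCL8, the chemokine interleukin 8, had H3K4me3 only, over 1150 and 1000 bp.

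Genes of development and of sensory function mostly had neither. Of 39 HOX genes 33 had neither and 5 had both, of 40 developmental transcription factors 31 had neither and 7 both, and of 51 clustered protocadherins 40 had neither and 4 both (beside 35.4% of all windows with neither). Of the protocadherins 7 had H3K4me3 only (13.7%, beside 6.24% of all). Of 389 olfactory receptor genes 384 had neither and 5 had H3K4me3 only. NKX2-1, a factor of lung and thyroid, combined a long H3K4me3 peak (8336 bp) with a short Pol II peak (936 bp). The 8 longest genes with neither were RBFOX1, CNTNAP2, PTPRD, DMD, CSMD1, EYS, CTNNA3 and PCDH15, of 1825 to 2474 kb, most of which are known for roles in neurons, muscle or sense organs. Of these, CTNNA3 had another annotated start, at least 3000 bp away, with both, as had 2.98% of all 7036 windows with neither.

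The 386 windows with Pol II only were mixed in kind. The 13 protein-coding genes of the mitochondrial genome were among them, since 1 Pol II peak (position 1 to 16701) covered the whole of chromosome M and H3K4me3 had 0 peaks there; the p300/CBP list also held 1 peak across it. Mitochondrial DNA is transcribed by a polymerase of its own and has no histones. Of the 373 nuclear windows, Pol II covered the start in 212 (56.8%), and in 318 (85.3%) no Pol II peak of the window touched an H3K4me3 peak. In 44 (11.8%) the start lay under a Pol II peak that did touch H3K4me3 elsewhere along its length, as for ZNF513, the only ZNF gene of this class, in a Pol II peak that reached 14850 bp and held 2 other starts. The start lay inside another protein-coding gene in 123 (33.0%). Of all 386, 4.40% had another annotated start, at least 3000 bp away, with both.

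By bases under Pol II, the leading genes of this class whose Pol II peaks touched no H3K4me3 were NEK10, TLL2, CCDC62, RARA, RSPH6A, TCTE1, HK3 and FERMT3, and in each Pol II covered all 3000 bp of the window. RARA, a retinoic acid receptor (chromosome 17, 38465432), lay under a Pol II peak from 6081 bp upstream to 3868 bp downstream, and had another start with both. HK3, a hexokinase of blood cells, had Pol II from 1753 bp upstream to 1796 bp downstream with the nearest H3K4me3 peak 80747 bp away. RSPH6A, a sperm flagellum protein, lay under a peak that extended 13634 bp upstream and 2515 bp downstream. The Pol II peak did not reach the transcript end in any of the 8, and H3K27ac was found only in the window of FERMT3.

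The 1242 windows with H3K4me3 only were split by H3K27ac. The mark covered a median of 1150 bp in the 754 windows with H3K27ac and 600 bp in the 488 without, while median gene length was 56306.5 and 55229 bp. The nearest Pol II peak lay a median of 57.2 kb from the start (quartiles 16.0 and 144 kb). The genes with the most H3K4me3 were KIF26B, SEMA3A, WNT5A, GADD45G, DHRS3, CXADR, CASKIN2 and CDH11, with 2815 to 3000 bp of the window covered, and each also held H3K27ac. WNT5A, a Wnt ligand (chromosome 3, 55521334), had H3K4me3 from 1716 bp upstream to 2383 bp downstream and H3K27ac over all 3000 bp. SEMA3A encodes a secreted guidance cue and CDH11 a mesenchymal cadherin, and their genes are 536.9 and 182 kb long. GADD45G, a stress-induced gene of 1.54 kb, shows that short genes occurred in this class too.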

How the data were processed

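The series holds ChIP-seq libraries of MDA-MB-231 cells. The authors aligned reads to hg19 with BWA-backtrack (the labels list Bowtie2), kept uniquely mapped reads in 50-bp bins, scaled the signal, subtracted background for H3K4me3 but not for Pol II, merged the 2 replicates and thresholded. The values deposited by the authors are peak positions in bp, with no count or height, and depth per sample is unknown. Inputs were not analysed here. No column of values was left unmapped.

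Starts and ends are 1 past a multiple of 50, and the base at the end was taken to lie outside the peak. Reach was the distance from the start to the end of the peak that covers it. Python 3.11.15, NumPy 2.4.6, SciPy 1.17.1 and matplotlib 3.10.9 were used. The interval functions were tested on simulated peaks, with 0 wrong answers in 4001 comparisons. Shares carry 95% Wilson intervals and medians intervals from order statistics. Alternatives changed the window, the overlap, the width of peaks, the gene span and the starts used.

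The members and gene lists were chosen with earlier results of these data known. Named were, by rule, the first and last gene of a list by Pol II reach and the 8 leading genes, 1 per peak, by Pol II reach, H3K4me3 reach, bases under Pol II without H3K4me3, bases under H3K4me3 without Pol II, and length with neither. The other list members named, and the genes whose sequences are printed, were chosen after their values were seen. Some genes that these rules cover are not reported here.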

Additional observations from a re-analysis of the deposited data

How the results depend on the processing

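No paired analysis was possible because peaks had been called on merged replicates. The lists carry no value per peak, so thresholds could not be varied, and only width, overlap and windows were. Of 70 alternative values for 13 results, 40 stayed within 1.5 times the main count or within the interval of the main value and 30 did not. Pol II reached less far than H3K4me3 at the median under every alternative run, and H3K4me3 windows held Pol II less often than the reverse.

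Keeping only peaks of at least their list's median width gave 6890 windows with both, 4050 with H3K4me3 only, 63.0% of H3K4me3 windows with Pol II and 92.9% of Pol II windows with H3K4me3. With the start itself under the peak, windows with Pol II only numbered 1062 and the shares were 87.8% and 89.6%. Median gene lengths were 21790 bp for Pol II only and 20043 bp for neither. The Pol II only group then takes in starts of windows with both, so this is not the length of the same genes. The neither group, then 8445 starts, likewise takes in windows of the other classes whose start lay under no peak of either list. Requiring 500 bp of the window gave 2469 with H3K4me3 only and a share of 79.6%. Windows that overlap no other gave shares of 87.8% and 96.1% and a median length of 36700 bp for both. All 56299 starts of basic transcripts, an alternative chosen after seeing the data, gave 32570, 996, 3431 and 19302 windows with both, Pol II only, H3K4me3 only and neither, and 97.0% of Pol II windows with H3K4me3. Without chromosome M, also chosen after seeing the data, no value left its range. Canonical transcript spans gave medians of 27978 bp for both, 48773 bp for H3K4me3 only and 14280 bp for neither.

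For reach, the farthest end of any peak touching the window gave 423 bp for Pol II and 11.6% of starts with Pol II farther. With no other start in the Pol II peak the values were 422 bp, 1446 bp for H3K4me3 and 8.74%. Genes of at least 10 kb gave 389 bp, 1438 bp and 6.47%.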
